A study of Mus musculus with 27 samples.

Results

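The photoreceptor transcription factors described here are the regulators Otx2, Crx, Nrl, Nr2e3, Rxrg, Thrb, Rorb, Neurod1 and Prdm1, chosen by name for their known part in making and keeping rods and cones. Of these 9 genes, 8 were measured among 19301 genes with their own probe set, each by 1 probe set, and Nr2e3 was not analysed here. They were followed on 27 gene expression arrays of sorted adult mouse retinal cells, 3 arrays for each of 9 groups, in a study that asked how expression values follow the amount of RNA of each cell type. Of the 8 genes, 6 passed the filter for dim genes and entered the tests over 12441 genes. Thrb and Prdm1 rose above the filter level (2.83 on the log2 scale) on 1 array each and were not tested.

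Each array held RNA of 200 cells collected by flow cytometry after papain dissociation. The pure cone group came from the Tg(Chrnb4-EGFP)1Gsat line, in which the Chrnb4 transgene drives the green reporter. The pure starburst group came from 129S6-Chat_tm1(cre)Lowl/J mice crossed to Rosa26-LSL-RFP, in which Cre made under Chat control switches on the red reporter. Starburst cells are the cholinergic amacrine interneurons of the retina. A titration added mixtures of 150 starburst and 50 cone cells, 100 and 100, and 50 and 150. A further 3 mixtures, labelled X by the submitters, held 125 starburst and 75 cone cells, 43 and 157, and 17 and 183. The ninth group held amacrine cells of the Tg(Arc-EGFP)194Gsat/Mmcd line and stood in the study as a control between batches. For each of the 3 replicates of the titration, cells were sorted from a fresh pool of 2 cone line retinas and 6 starburst line retinas, so an array stands for pooled animals. All groups are labelled as adult, on a background that mixes C57BL/6J with an FVB/N-Swiss Webster hybrid, and the labels note a recessive photoreceptor degeneration mutation in the hybrid stock before its backcross. Cell type and mouse line cannot be told apart in any comparison between pure groups.

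The 9 regulators act as a cascade. Otx2, a homeodomain protein, commits retinal precursors to the photoreceptor and bipolar fates and switches on Crx, its close relative, which drives photoreceptor genes in rods and cones for life. Neurod1, a basic helix-loop-helix factor, and the nuclear receptor Rorb act early and remain in photoreceptors, and Prdm1, a zinc finger repressor, holds back the bipolar fate. Nrl, a leucine zipper factor, and its target Nr2e3 set the rod programme and silence cone genes. The thyroid hormone receptor Thrb and the retinoid receptor Rxrg act together in cones, where they pattern the opsins.

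Promoter sequences are shown for the 4 regulators that were higher in cones, because some members of this cascade bind the promoters of one another. Each is the stretch of 250 bases before a RefSeq transcription start (build GRCm38.p6), read 5′ to 3′ on the strand of the gene. Capitals mark TAATCC, the core recognised by Otx2 and Crx (here as its reverse complement GGATTA), in Crx and Otx2. In Rxrg they mark AGGTCA, the hexamer of nuclear receptors, and in Neurod1 TGCTGA, part of the element bound by Nrl (here as TCAGCA).
Crx: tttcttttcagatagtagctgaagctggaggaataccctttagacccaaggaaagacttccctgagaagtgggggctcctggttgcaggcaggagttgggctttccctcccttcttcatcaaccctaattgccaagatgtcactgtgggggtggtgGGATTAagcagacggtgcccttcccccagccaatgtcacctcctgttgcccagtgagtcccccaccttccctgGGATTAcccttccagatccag
Otx2: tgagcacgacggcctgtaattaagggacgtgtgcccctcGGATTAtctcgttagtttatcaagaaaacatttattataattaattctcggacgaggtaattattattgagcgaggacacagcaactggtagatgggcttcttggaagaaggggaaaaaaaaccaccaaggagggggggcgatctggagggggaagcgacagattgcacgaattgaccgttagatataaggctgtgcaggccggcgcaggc
Rxrg: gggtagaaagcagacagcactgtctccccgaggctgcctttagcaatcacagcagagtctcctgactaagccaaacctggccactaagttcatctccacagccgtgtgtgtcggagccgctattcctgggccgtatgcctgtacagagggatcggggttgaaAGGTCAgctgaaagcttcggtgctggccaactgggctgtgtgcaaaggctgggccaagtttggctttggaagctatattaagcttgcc
Neurod1: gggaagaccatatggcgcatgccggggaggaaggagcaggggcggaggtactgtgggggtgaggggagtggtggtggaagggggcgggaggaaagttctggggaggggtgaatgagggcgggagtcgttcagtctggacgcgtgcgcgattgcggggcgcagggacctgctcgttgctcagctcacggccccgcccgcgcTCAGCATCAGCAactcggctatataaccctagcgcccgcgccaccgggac
The Crx window lies at chr7:15879956-15880205 on the minus strand and holds the core at 94 and at 21 bases before the start. The Otx2 window, chr14:48665110-48665359 on the minus strand, belongs to 1 of 4 Otx2 starts and holds the core at 211 bases before it. The Rxrg window is chr1:167618015-167618264 on the plus strand, with its match at 88 bases before the start. The window of another Rxrg start, chr1:167598112-167598361, held no AGGTCA. The Neurod1 window is chr2:79456637-79456886 on the minus strand, with adjoining matches at 50 and 44 bases before the start.

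Both strands were searched in the 14 windows of all 8 measured regulators, and no matches of different motifs overlapped. The core TAATCC stood in 3 of the 14 windows (of Otx2, Crx and Thrb) and in 6.25% of 32851 promoter windows of the same length. AGGTCA stood in 2 of the 14 (of Rxrg and Thrb) and in 14% of all windows. CAGATG, an E-box bound by NeuroD factors, stood in 2 of the 14 (of Otx2 and Nrl) and in 14.4%. TGCTGA stood in 3 of the 14 (of Otx2, Rorb and Neurod1) and in 16.1%. These matches describe letters in a window and not binding.

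The deposited values were log2 expression made by the authors. The labels were checked against defining markers: the starburst transporter Slc18a3 averaged 10.66 on the pure starburst arrays, 3.16 on the cone arrays and 3.08 on the Arc arrays, and the cone opsin Opn1mw averaged 4.64, 10.88 and 3.05. Replicates of a group correlated between 0.935 and 0.979 over all 22347 probe sets. The third pure cone array stood apart. There the 13 cone genes listed for this report summed to 5240 linear units against 12879 and 12538 on the first and the second. The 14 rod genes summed to 7919 against 5602 and 5193. Of the starburst markers, Isl1 read 5.82 against 3.54 and 3.66, while Slc18a3 read 2.81 against 3.56 and 3.10. Chat read 3.05 against 3.21 and 2.87. Of these, Isl1 alone was highest on the third array. Results are therefore also given without the third arrays of every group where a call of a named gene is lost or gained, or a position given for a mixture moves by over 1 SD. Genes were called different at a Benjamini-Hochberg adjusted p under 0.05 in limma with an absolute log2 difference of at least 1, and errors of differences are standard errors of that fit.

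Pure cone arrays were compared with pure starburst arrays to ask which regulators separate a photoreceptor from an amacrine cell in the adult retina. Otx2, Crx and Neurod1 were higher in cones, by 2.83 to 3.28 times. Rxrg was also higher, by 3.83 times against starburst values of which 2 of 3 lay below the filter level, so that the size depends on background. Nrl and Rorb did not reach the call. Of the 6 tested regulators 4 were thus called higher, where 2.64% of all tested genes were, and the median difference of the 6 was 1.56 against -0.04 over all genes.

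**Figure D1:**
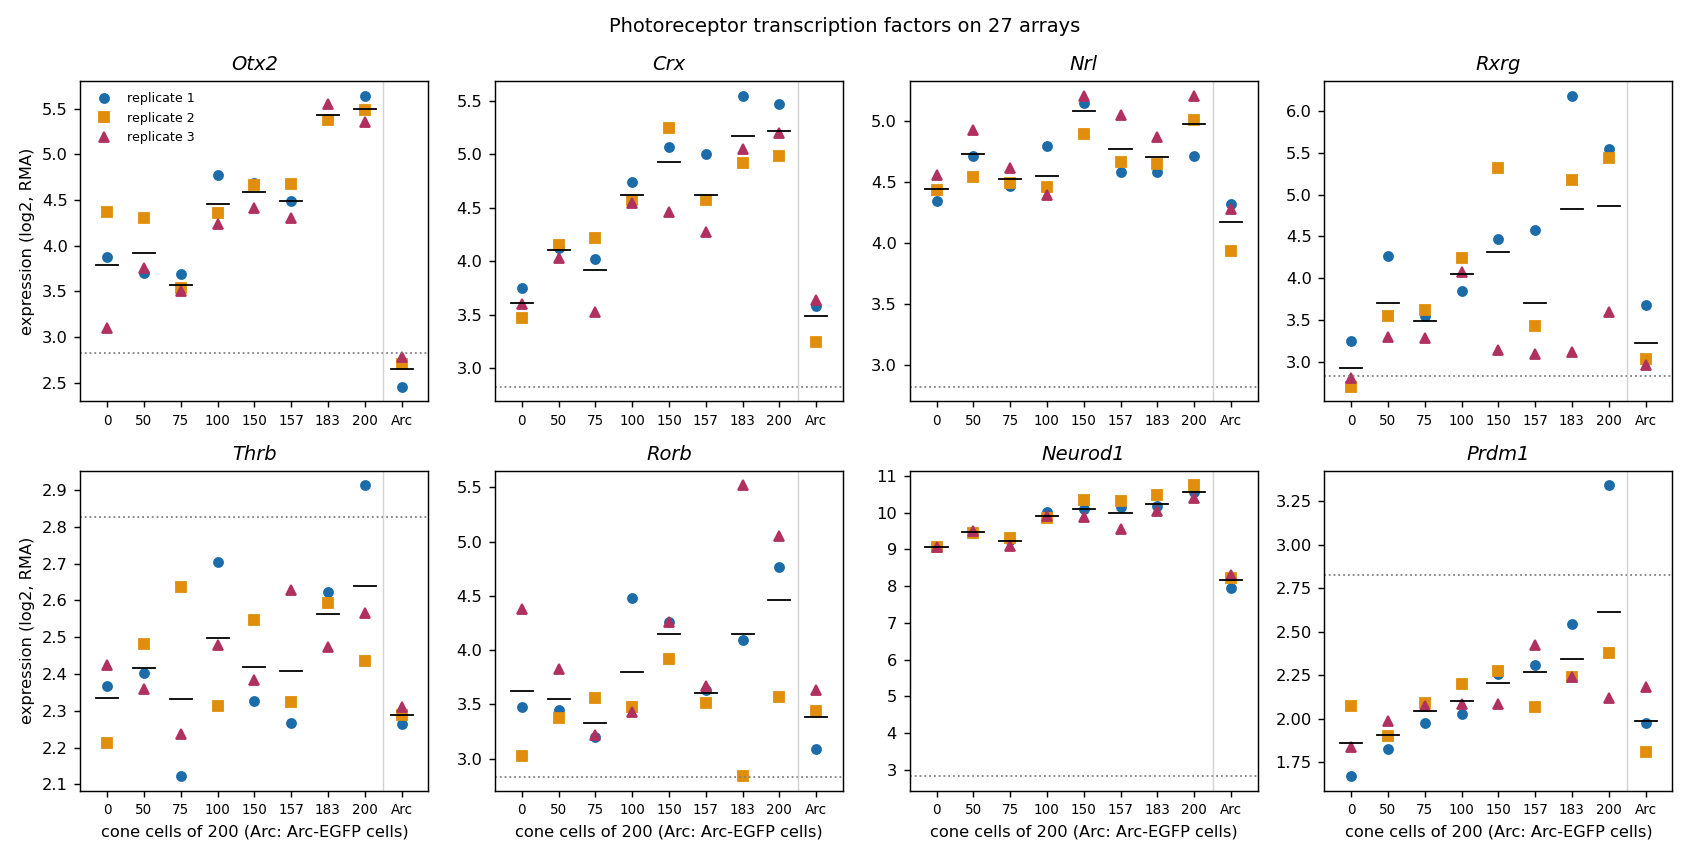
Log2 expression (RMA) of the 8 measured regulators on all 27 arrays, by the number of cone cells among 200, with the Arc group at the right of each panel. Markers are arrays by replicate number, bars are group means of 3 arrays, and the dotted line is the filter level of 2.83; Otx2, Crx and Neurod1 climb with the cone cells, and Rxrg climbs on the first 2 replicates while the third arrays stay between 2.81 and 4.07.

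Otx2, at the head of the cascade, read 5.65, 5.49 and 5.36 on the pure cone arrays and 3.88, 4.37 and 3.10 on the pure starburst arrays. Every cone array stood above every starburst array. The difference was 1.71 ± 0.23 (n = 3 arrays a group, limma adjusted p = 1.7e-05), or 3.28 times. The starburst arrays spread widely for Otx2 (mean 3.79 ± 0.64 SD), with the second the highest. That second starburst array also carried the highest cone signal of its group, with Opn1mw at 6.04 against 3.93 and 3.94, and its 17 shared photoreceptor genes summed to 2859 linear units against 1937 and 1794. The part of these photoreceptor transcripts in the Otx2 level of starburst cells was not tested. In bulk RNA of sorted cells, fewer cells of a type and less RNA per cell cannot be told apart.

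Crx, the photoreceptor homeodomain factor downstream of Otx2, read 5.47, 4.98 and 5.20 in cones and 3.75, 3.47 and 3.60 in starburst cells. The groups did not overlap, and the spread within each was small (SD 0.24 and 0.14). Crx was higher in cones by 1.61 ± 0.22 (adjusted p = 2.3e-05), or 3.06 times. Within replicate numbers the difference was 1.72, 1.51 and 1.60.

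Neurod1, which keeps cones alive in the adult and also acts in amacrine cells, read 10.56, 10.75 and 10.40 in cones and 9.07, 9.06 and 9.08 in starburst cells. The 3 starburst arrays were nearly equal and lay well above the filter level. Photoreceptor transcripts were present on them too, with the phototransduction regulator Pdc averaging 8.92 and the rod transducin subunit Gngt1 8.01, and their part in the Neurod1 level was not tested. The cone arrays were higher by 1.50 ± 0.17 (adjusted p = 1.6e-06), or 2.83 times.

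Of the nuclear receptors, Rxrg had the largest difference and the largest spread. Its values were 5.55, 5.43 and 3.60 in cones and 3.25, 2.70 and 2.81 in starburst cells. The first and the second cone array stood far above the starburst arrays, and the third lay only a little above them. The difference was 1.94 ± 0.62 (adjusted p = 0.0388), and 2.51 (adjusted p = 0.0027) without the third arrays. The call was lost without pure cone replicate 1 (adjusted p = 0.145) or 2 (0.140), without starburst replicate 1 (0.0622), 2 (0.109) or 3 (0.0960), with no filter on dim genes (0.0557) and with only these 2 groups in the fit (0.0676).

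Rorb, an orphan receptor needed for early rod and cone development, read 4.76, 3.57 and 5.05 in cones and 3.48, 3.02 and 4.38 in starburst cells. The groups overlapped, and the difference of 0.83 ± 0.47 did not pass (adjusted p = 0.280). Thrb, whose cone isoform patterns the medium-wave opsin, read 2.91, 2.44 and 2.57 in cones and 2.37, 2.21 and 2.42 in starburst cells. Its values lay below the filter level on all arrays but the first cone array, so no level of Thrb in either cell type can be read from these arrays.

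Nrl, the rod determinant, read 4.71, 5.01 and 5.21 in cones and 4.34, 4.44 and 4.56 in starburst cells. The groups did not overlap, but the difference of 0.53 ± 0.16 (adjusted p = 0.0326) was 1.45 times and under the fold needed for a call. It was 0.47 (adjusted p = 0.155) without the third arrays. The highest cone value of Nrl fell on the third array, which also had the highest rod signal, with the rod transducin Gnat1 at 10.41 against 8.11 and 8.28. The part of rod transcripts in the Nrl values was not tested. Prdm1 read 3.34, 2.38 and 2.12 in cones and 1.67, 2.07 and 1.84 in starburst cells, with 1 of these 6 values above the filter level. Without the filter its difference was 0.75 ± 0.20 (adjusted p = 0.0208), again under the fold needed.

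**Figure D2:**
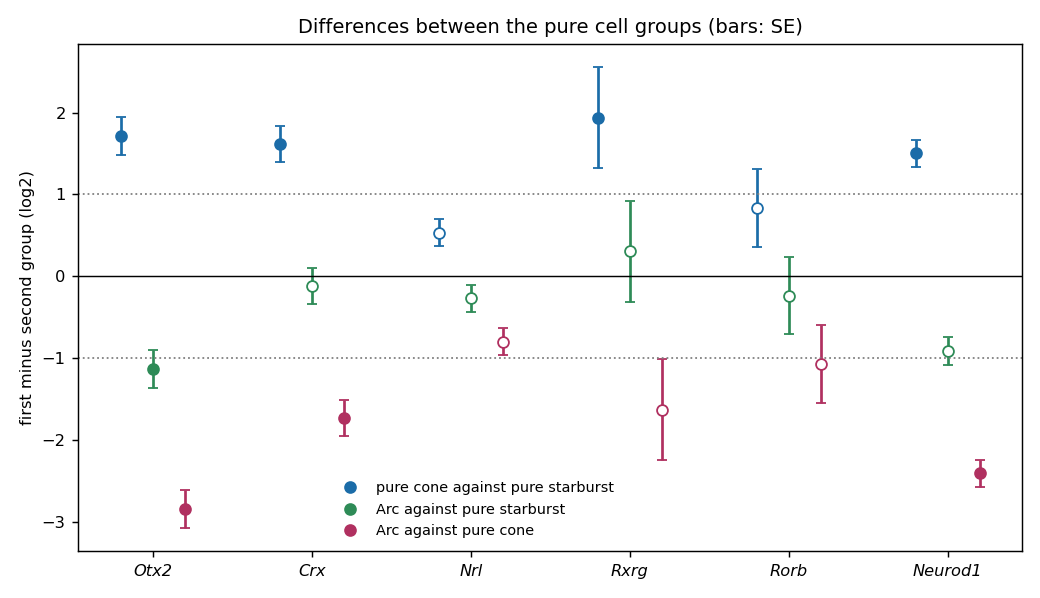
Log2 differences of the 6 tested regulators between the 3 pure groups, with standard errors from limma (n = 3 arrays a group); filled points were called and the dotted lines mark a log2 difference of 1. Otx2 is called in all 3 comparisons, Crx and Neurod1 in both that involve cones, and Rxrg has the widest errors.

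The Arc amacrine cells were then set against starburst cells, so that levels of these regulators could be compared between 2 interneuron populations. Otx2 was the regulator called, lower in the Arc cells. This made 1 of 6 called lower, where 1.39% of all tested genes were. Otx2 read 2.46, 2.71 and 2.79 on the Arc arrays, all below the filter level and below every starburst array. The difference was -1.14 ± 0.23 (adjusted p = 0.0027), and as the Arc values lie near background its size depends on that background. It was -0.84 (adjusted p = 0.0280) without starburst replicate 2, the array with the highest cone signal, which ended the call, and the adjusted p was 0.0874 with only these 2 groups in the fit.

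Neurod1 was also lower in the Arc cells, at 7.95, 8.21 and 8.31 against 9.06 to 9.08. The groups did not overlap. The difference of -0.91 ± 0.17 (adjusted p = 0.0013) stayed under the fold needed for a call. Crx (3.58, 3.25 and 3.63 on the Arc arrays, difference -0.12 ± 0.22, adjusted p = 0.889), Nrl (-0.27 ± 0.16, 0.483), Rxrg (0.31 ± 0.62, 0.900) and Rorb (-0.24 ± 0.47, 0.896) did not pass. Photoreceptor transcripts differed between these amacrine groups as well: the 17 shared photoreceptor genes summed to 1794 to 2859 linear units on the starburst arrays and 980 to 1147 on the Arc arrays, and the 14 rod genes to 1314 to 2340 and 729 to 1023. Where 1.39% of all tested genes were called lower in the Arc cells, 4 of the 16 tested shared photoreceptor genes were, among them Pdc (-1.17, adjusted p = 3.4e-05). Their part in the differences of Otx2 and Neurod1 was not tested.

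Against pure cones, whose arrays also entered the first comparison, the Arc cells had lower Otx2, Neurod1 and Crx. These were 3 of 6, where 2.51% of all tested genes were called lower. Otx2 differed by -2.85 ± 0.23 (adjusted p = 1.1e-08), a size that again depends on the background in the Arc cells, Neurod1 by -2.41 ± 0.17 (1.4e-09) and Crx by -1.73 ± 0.22 (6.5e-06). Rxrg read 3.68, 3.04 and 2.96 in the Arc cells and its difference of -1.63 ± 0.62 did not pass (adjusted p = 0.0725). It was called without the third arrays (-2.13, 0.0066), without cone replicate 3 alone (-2.26, 0.0181), with the stricter filter (0.0499) and with replicate number as a block (0.0178). Nrl differed by -0.80 ± 0.16 (0.0013), under the fold needed, and Rorb by -1.07 ± 0.47 (0.128). After quantile normalization Nrl was called (-1.04, 0.0018), and without cone replicate 2 so was Rorb (-1.52, 0.0412).

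The levels were next ordered over all 9 groups. The 6 tested regulators are ranked here, since the group means of Thrb and Prdm1 all lay below the filter level. Pure cones had the highest mean of 5 of the 6, and the exception was Nrl, whose mean was highest in the mixture of 50 starburst and 150 cone cells (5.08 ± 0.17 SD against 4.98 ± 0.25 in pure cones). The Arc cells had the lowest mean of Otx2, Crx, Nrl and Neurod1, pure starburst cells the lowest of Rxrg, and the mixture with 75 cone cells the lowest of Rorb. Most neighbours in these orders were not separated by their arrays. For Neurod1, ranges of 4 of 8 neighbouring pairs overlapped, for Otx2 6, for Crx and Nrl 7 each, and for Rxrg and Rorb all 8. Otx2 fell into 3 steps with gaps between them: the Arc cells at 2.65 ± 0.17, the groups with 0 to 157 cone cells between 3.57 and 4.59, and the groups with 183 and 200 cone cells at 5.44 ± 0.10 and 5.50 ± 0.14. For Neurod1 the order from the Arc cells (8.16 ± 0.19) through pure starburst cells (9.07 ± 0.01) and the mixtures with 75 (9.22 ± 0.11), 50 (9.46 ± 0.04) and 100 cone cells (9.92 ± 0.08) had no overlap between neighbours. In it the mixture with 75 cone cells stood below the one with 50.

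The titration tests whether a regulator follows the number of cone cells. The slope of the log2 value on cone share, from pure starburst to pure cone over 15 arrays, was called for Crx, Neurod1, Otx2 and Rxrg. This made 4 of 6, where 2.55% of all tested genes were called with a rising slope. The pure arrays are among the 15, so the slope is not separate from the first comparison. Crx read 4.12, 4.15 and 4.03 with 50 cone cells, 4.74, 4.58 and 4.55 with 100, and 5.07, 5.25 and 4.46 with 150. Its slope was 1.62 ± 0.17 for the whole span (adjusted p = 2.1e-05), and the third array with 150 cone cells lay below the third with 100.

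Neurod1 read 9.43, 9.45 and 9.51 with 50 cone cells, 10.01, 9.85 and 9.90 with 100, and 10.09, 10.36 and 9.89 with 150. It rose with each step on the first and the second arrays, with a slope of 1.46 ± 0.12 (adjusted p = 4.6e-06). Otx2 read 3.70, 4.31 and 3.76 with 50 cone cells, 4.77, 4.36 and 4.24 with 100, and 4.69, 4.67 and 4.41 with 150. The values with 50 cone cells lay within the range of pure starburst cells, and the slope was 1.64 ± 0.26 (4.4e-04). Rxrg read 4.27, 3.54 and 3.30 with 50 cone cells, 3.85, 4.24 and 4.07 with 100, and 4.46, 5.32 and 3.14 with 150. Its slope was 1.79 ± 0.44 (0.0107), and was not called without replicate 1 of every group (0.0942) or replicate 2 (0.201). Nrl, with 0.57 ± 0.17 (0.0307), and Rorb, with 0.90 ± 0.34 (0.0840), were not called. With replicate number as a block the adjusted p of Rorb was 0.0364, and its slope stayed under the fold needed.

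The X mixtures gave the slope on cone share on 9 arrays that the titration did not use. It is again given for the whole span, but these mixtures run only from a share of 37.5% to 91.5%. The slopes thus reach beyond the shares observed, and the minimum fold asks for a smaller change between the end mixtures than in the titration. Otx2 and Neurod1 were called with a rising slope, 2 of 6, where 0.506% of all tested genes were. Otx2 read 3.69, 3.54 and 3.50 with 75 cone cells, 4.49, 4.68 and 4.30 with 157, and 5.39, 5.37 and 5.55 with 183. The 3 mixtures did not overlap, and the slope was 3.16 ± 0.40 (adjusted p = 0.0095). Neurod1 read 9.25, 9.32 and 9.10, then 10.15, 10.30 and 9.54, then 10.18, 10.47 and 10.05, with a slope of 1.87 ± 0.36 (0.0325). Crx read 4.02, 4.22 and 3.52, then 5.0, 4.57 and 4.28, then 5.55, 4.92 and 5.05, and its slope of 2.17 ± 0.47 missed the threshold (0.0534). Rxrg read 3.54, 3.62 and 3.29, then 4.58, 3.43 and 3.09, then 6.19, 5.17 and 3.12, and did not pass (2.01 ± 1.26, 0.505), nor did Rorb (1.32, 0.563) or Nrl (0.39, 0.584). Leaving out replicate 1 or 2 of every mixture ended these calls, while the slopes moved little. Without replicate 1 the slope was 3.30 for Otx2 (adjusted p = 0.0934) and 1.89 for Neurod1 (0.220). Without replicate 2 the slopes were 3.11 (0.214) and 1.71 (0.309). Over all tested genes 226 were called on the 9 arrays, 5 without replicate 1 and 0 without replicate 2, where 1098 had an unadjusted p under 0.05. Crx was called with replicate number as a block (0.0306), with the stricter filter (0.0397) and after quantile normalization (0.0229).

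**Figure D3:**
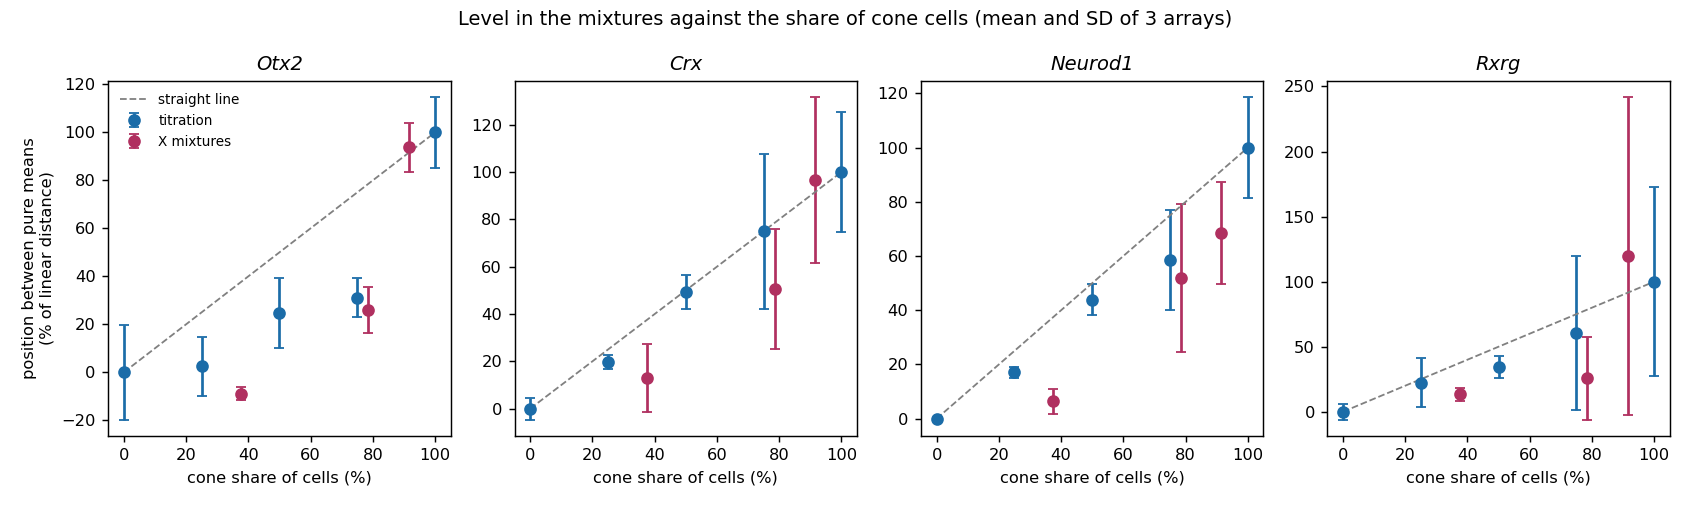
Position of each mixture between the pure starburst mean (0%) and the pure cone mean (100%), computed on the linear scale, against the share of cone cells in percent, for the 4 regulators called between the pure groups. Points are means of 3 arrays with SD, and the dashed line is the share of cells itself; in the titration Crx lies below the line at 25% and near it at 50% and 75%, the means of Neurod1 lie below it, and Otx2 lies far below it until 91.5%.

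On the linear scale, a level that follows the mean of the cells would place a mixture at its cone share. The SDs given are of the mixture arrays and leave out the spread of the pure arrays that set 0% and 100%. On this scale the SD of the pure cone arrays was 25.2 for Crx, 18.6 for Neurod1, 14.7 for Otx2 and 72.4 for Rxrg. The SD of the pure starburst arrays was 4.66, 0.364, 19.7 and 6.10 in the same order. In the titration Crx stood at 19.6% ± 2.94 (SD, n = 3) for a cone share of 25%, with all 3 arrays below the share, at 49.1% ± 7.21 for 50% and at 74.9% ± 32.6 for 75%. The mean of Neurod1 was lower than the share in each of these, at 17.2% ± 1.98, 43.9% ± 5.74 and 58.6% ± 18.5. Otx2 stood at 2.50% ± 12.4, 24.8% ± 14.6 and 31.1% ± 8.16. Rxrg took 22.4% ± 19.0, 34.2% ± 8.59 and 60.5% ± 59.3. The spread at 75% was too wide for Crx, Neurod1 and Rxrg to be set apart from the share.

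In the X mixtures most of these positions also lay below the share of cone cells. At a share of 37.5% Crx stood at 12.8% ± 14.3, Neurod1 at 6.39% ± 4.58, Rxrg at 13.6% ± 5.04 and Otx2 at -8.95% ± 2.69. The Otx2 position was below the pure starburst mean but within the range of the pure starburst arrays (-19.9% to 19.6%). At 78.5% they stood at 50.7% ± 25.3, 51.8% ± 27.3, 25.6% ± 31.6 and 25.9% ± 9.71. At 91.5% Crx reached 96.5% ± 35.1, Otx2 93.8% ± 10.1, Neurod1 68.5% ± 18.9 and Rxrg 120% ± 122. Otx2 therefore moved from 25.9% to 93.8% between the last 2 mixtures, with no overlap of their arrays. Without the third arrays of every group, Otx2 stood at 80.5% for a share of 91.5%, below the share, and at -18.4% for 37.5%, Rxrg at 23.3% for 50% and Neurod1 at 14.9% for 25%. After quantile normalization Crx stood at 16.3% for 25% and Otx2 at -6.09% for 37.5%. The starburst transporter Slc18a3 read 9.75 in the mixture with 157 cone cells and 9.50 in the one with 183, beside 9.43 in the titration mixture with 150.

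**Figure D4:**
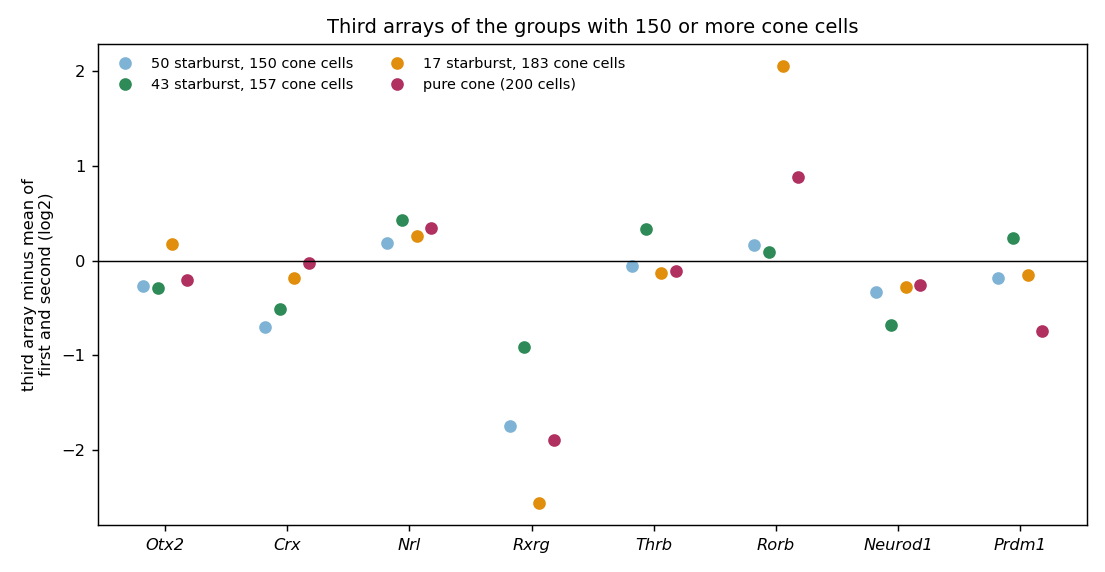
The third array minus the mean of the first and the second, in log2 units, for the 8 measured regulators in the 4 groups with 150 or more cone cells. Each point is 1 group; Rxrg, Neurod1 and Crx lie below 0 and Nrl and Rorb above 0 in all 4.

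Rxrg was low on the third arrays of the groups rich in cones. In each of the 4 groups with 150 or more cone cells, the third array had the lowest Rxrg of its group. Its differences from the mean of the other two were -1.75 with 150 cone cells, -0.91 with 157, -2.56 with 183 and -1.89 in pure cones. Neurod1 was also lowest on the third array of all 4, with differences of -0.68 to -0.25. Nrl was highest on all 4, by 0.19 to 0.43, and Rorb on 3 of 4, with differences of 0.092 to 2.06 over the 4 groups. The third array lay below the mean of the other two in all 4 groups for Crx as well (-0.70 to -0.024), and was the lowest of its group in 2. For Otx2 it was the lowest in 3 groups and the highest in 1. The cone gene sum was lowest on the third array of all 4 groups, at 3308 linear units against 9560 and 9986 with 150 cone cells, 1811 against 9930 and 9073 with 157, and 3838 against 12261 and 11325 with 183. The rod gene sum was highest on the third array in 3 of the 4, at 4535 against 4229 and 4229 with 150 cone cells and 5707 against 4502 and 4746 with 183. With 157 cone cells it was the lowest, at 3206 against 3617 and 3399, although Nrl was highest there. The part of these markers in the values of the regulators was not tested.

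Other known regulators of photoreceptor genes were counted beside these. Of 20 listed, 17 were measured and 15 tested, and 2 were higher in cones, where 2.64% of all tested genes were. Rax, the retinal homeobox gene that works beside Crx on photoreceptor promoters, averaged 6.83 in cones and 3.73 in starburst cells, a difference of 3.10 ± 0.52 (adjusted p = 2.3e-04). It was also the regulator of this list called in the X mixtures, with a slope of 5.23 for the whole span of cone share (0.0340). Sall3, a zinc finger factor of cones and horizontal cells, was higher by 1.18 ± 0.27 (0.0045). Ppargc1a, a coactivator of nuclear receptors, averaged 5.92 and 4.71 (1.21 ± 0.44, 0.0699), and was called over the titration (slope 1.23, 0.0471), without the third arrays (1.96, 0.0120) and under other settings. Fiz1, which binds Nrl, did not differ beyond its error (0.13 ± 0.25, 0.804). The median of the 15 was 0.29 against -0.04 over all genes.

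Relatives of the 9 regulators moved in both directions. Of 19 listed paralogs 16 were measured and 13 tested. In cones 1 was higher, 2 were lower and 10 were not called, where 2.64% of all tested genes were higher and 5.79% lower. Thra, the other thyroid hormone receptor gene, averaged 3.49 in cones, 5.40 in starburst cells and 5.80 in Arc cells. The difference of cones from starburst cells was -1.90 ± 0.32 (adjusted p = 1.9e-04). Neurog2, a proneural helix-loop-helix factor, averaged 3.62, 5.65 and 4.08, and was lower in cones by the same comparison (-2.03 ± 0.30, 4.4e-05). Rora, an orphan receptor that activates cone opsin genes, was higher in cones by 1.00 ± 0.24 (0.0060), at the edge of the fold needed, and the call was lost after centring of the arrays (0.98) and without cone replicate 1 (0.87) or starburst replicate 1 (0.99) or 2 (0.94). Rxrb (-0.51 ± 0.15, 0.0236) and Prdm8 (0.31 ± 0.20, 0.360) were not called.

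Genes that these factors are known to drive were counted beside them. Of 13 cone genes 10 were higher in cones, with a median difference of 5.54, and the leading ones were Opn1mw, Opn1sw and the cone transducin Gnat2. Of 16 tested photoreceptor genes shared by rods and cones 14 were higher, with a median of 2.09, such as the retinoid carrier Rbp3 (3.86 ± 0.47, adjusted p = 4.3e-06), the calcium sensor Rcvrn and the complexin Cplx4. Of 13 tested rod genes, targets of Nrl and Crx, 5 were higher, with a median of 1.10. They included the arrestin Sag (2.79), the phosphodiesterase subunit Pde6g (2.73) and Nxnl1 (2.17), while Gnat1 (1.10 ± 0.53, 0.190) and Gnb1 (0.50 ± 0.50, 0.587) were not called. The genes of this list did not all move together. Sag read 11.06, 11.02 and 10.95 on the pure cone arrays, where Gnat1 read 8.11, 8.28 and 10.41. Whether rods or cones gave the transcripts of the listed rod genes was not tested. In the X mixtures 5 rod genes and 7 shared photoreceptor genes were called with a rising slope, while limma called 0 of the 13 cone genes there, 10 of which had an unadjusted p under 0.05. Over all tested genes between the pure groups 2.64% were called higher in cones, and the median difference was -0.04. In the X mixtures 0.506% of all tested genes were called with a rising slope.

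Markers of other retinal cells were examined for the same pure groups. Otx2 is also a bipolar cell gene, and among 12 tested bipolar markers 3 were higher in cones: Otx2 itself, Cabp5 (2.56 ± 0.38, 4.9e-05) and Scgn (4.56 in cones and 2.44 in starburst cells, 0.0122), of which Scgn was not called without the third arrays (1.40, 0.150). Of all tested genes 2.64% were higher in cones. The bipolar receptor Grm6 averaged 2.68 in starburst cells, 2.76 in cones and 2.71 in Arc cells, and the bipolar factor Vsx1 averaged 2.93, 2.90 and 2.82, all near the filter level. Among uncalled bipolar markers of higher level, Pcp2 averaged 4.27, 5.23 and 3.36 in the same order. Its difference of cones from starburst cells was 0.96 ± 0.59 (adjusted p = 0.333). Gpr179 averaged 3.41, 3.16 and 3.14 (-0.25 ± 0.16, 0.339). The 14 measured bipolar genes, Otx2 among them, summed to 179 to 305 linear units on the cone arrays, 95.4 to 164 on the starburst arrays and 92.6 to 95.9 on the Arc arrays. Within these sums Otx2 itself gave 41.1 to 50.0, 8.60 to 20.7 and 5.50 to 6.90 units in the same order, so the sums are not separate from Otx2. Of 14 amacrine transcription factors 4 were lower in cones and 1 was higher, where 5.79% and 2.64% of all tested genes were. Sox2 (-4.70), Isl1 (-4.63) and Tfap2b (-2.88) led them, and Meis2 (1.30, 0.0062) was the one higher. Of 9 Müller glia, 4 pigment epithelium, 6 ganglion cell and 4 microglia markers tested, limma called 0 between cones and starburst cells, while 1, 0, 3 and 1 had an unadjusted p under 0.05. Among these markers is the glial lipoprotein gene Apoe (7.76 in starburst cells, 7.10 in cones, difference -0.66 ± 0.36, 0.262).

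The likeness of profiles was described over the 9 group means, which share the pure cells from which mixtures were made. Among the 6 tested regulators Pearson correlations ran from 0.711 (Nrl and Rxrg) to 0.964 (Otx2 and Neurod1), with 0.952 for Crx and Rxrg and 0.945 for Otx2 and Crx. Over the 27 single arrays Rxrg and Rorb had 0.046 and Nrl and Rxrg 0.199, against 0.922 for Otx2 and Neurod1. The genes nearest to Otx2 were Tdrd7 (0.988), Prcd (0.983) and Morn1 (0.978), of which Prcd encodes a protein of photoreceptor discs. Nearest to Crx were Plekhb1 (0.993), Pdzph1 (0.993) and Glmn (0.992), and nearest to Rxrg were Pygm (0.972), Ccne2 (0.972) and the photoreceptor cadherin Cdhr1 (0.970). Nearest to Neurod1 were H2bc4 (0.995), Gngt1 (0.995) and Pdc (0.992).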

How the data were processed

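Groups (9, each with 3 arrays) were taken from the labels. The deposited values are log2 expression per probe set, made by the authors with RMA in the R package oligo (R 2.11.1, build mm9), per the submitters' processing notes. The medians of single arrays ran from 2.78 to 2.89, and identical arrays numbered 0. Of 22347 probe sets, 19446 had 1 symbol in the platform's probe table, 735 several and 2166 none, and only the first kind was used. For a gene with several, the probe set with the highest mean was taken. Genes above 2.83, the median of all values, on at least 3 arrays were tested.

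All arrays entered 1 fit with lmFit and eBayes (R 4.3.3, limma 3.58.1) with a mean for each group, two-sided tests and Benjamini-Hochberg adjustment over 12441 genes. Slopes on cone share used the 15 titration or the 9 X arrays. The fit was tested on simulated data. Positions and sums used values turned back to the linear scale. Replicates are biological per the labels. Members and gene lists were chosen with earlier results of these data known. All members were named, and the 3 genes most like each called member. From each other list, a rule took the 3 called genes with the largest difference between the pure groups. It also took up to 2 uncalled genes of high level. Not every gene so taken is given here, and the horizontal cell markers are left out. Grm6 and Vsx1 were named outside this rule. Meis2, Pdc and the genes given for the third arrays were named after their values were seen.

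Replicate number marks a shared pool in the titration, by the design text. Deviations from group means of same-numbered pure cone and pure starburst arrays correlated at 0.030, 0.014 and 0.056. Over 84 same-numbered pairs of cone and starburst groups the mean was 0.055, against -0.027 over 168 pairs of different number. The fit with replicate number as a block is an alternative. Promoter sequences came from RefSeq (GRCm38.p6), where all 8 measured members matched by symbol. Other alternatives were the filter, array centring, quantile normalization, the groups in the fit, the mean of probe sets, the eBayes trend, the minimum fold, and leaving out replicates.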

Additional observations from a re-analysis of the deposited data

How the results depend on the processing

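With 3 arrays a group, a member's call can rest on 1 array, and values near 2.83 carry little signal over background. No outlier test applies to groups of 3. Of the values for single genes under the alternatives, 1182 kept their direction and side of the threshold, 24 lost a call, 35 gained one and 13 turned sign. Of the counts 201 stayed within 1.5 times and 12 moved. Of the positions 133 stayed within 1 SD and 11 moved. The cause was not tested, except that a lower minimum fold by its construction calls more genes. Array centring and quantile normalization put the median of all genes between the pure groups at -0.06 and -0.01 against -0.04.

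With no minimum fold, 1752 genes were called between cones and starburst cells (1048 with it), 715 between Arc and starburst cells (442), 2207 between Arc cells and cones (1286) and 1974 over the titration (1020), and 2 members were lower in Arc than in starburst cells. With only those 2 groups in the fit, 0 members were lower there by limma, while 2 had an unadjusted p under 0.05. With replicate number as a block, 344 genes were called in the X mixtures (226 without it), and members called higher there were 3, against 4 in cones over starburst cells and 4 over the titration. Besides the calls named above, the block changed no other call of a member. Leaving out each replicate gave 0 to 287 genes and 0 to 2 members in the X mixtures, and 0 to 1 member lower in Arc than in starburst cells. At the counts of 0, an unadjusted p under 0.05 was held by 1098 genes (X mixtures without replicate 2), 3 or 4 rising members there (without replicate 1 or 2) and 2 members in the Arc cells (without starburst replicate 2). In the other comparisons it gave 899 to 1045, 371 to 421, 1062 to 1340 and 750 to 965 genes, and 3 to 4 members in cones over starburst cells, Arc cells against cones and the titration.

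Signs turned for genes that were not called. Between cones and starburst cells, leaving out each replicate gave -0.14 to 0.32 for Fiz1, -0.12 to 0.90 for Gnb1, -0.31 to 0.40 for Glul, -0.061 to 0.058 for Slc16a8 and -0.70 to 0.15 for Cx3cr1. Between Arc and starburst cells it gave -0.19 to 0.0020 for Crx and -0.54 to 0.14 for Rorb. Without the third arrays of every group, Gnb1 was -0.25, Glul -0.35, Slc16a8 0.044 and, between Arc and starburst cells, Rorb 0.014.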
